A study of Mus musculus with 6 samples.

Results

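The mouse genes Zfp800 to Zfp999 encode zinc finger proteins, and the deposited count table of this study holds 91 of them among its 49315 genes. The members were chosen by symbol, and the rule itself uses no measured value. They lie on 14 chromosomes, and 63 of them fall into 9 clusters, defined as at least 3 members whose neighbouring starts lie within 2 Mb. The study sequenced RNA from oocytes at the germinal vesicle (GV) stage, which have not yet resumed meiosis, of 3 Control mice and 3 Rpa1 OcKO mice, in which Rpa1 is deleted in the oocyte. Each library is 1 mouse aged 4 to 5 weeks and primed with PMSG, a gonadotropin that stimulates follicle growth, and about 20 oocytes free of cumulus cells were pooled per mouse. The labels used here name neither the driver of the deletion nor the alleles carried by the Control mice.

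Most zinc finger proteins of this kind carry a KRAB domain, a short repression module at the start of the protein, followed by a row of zinc fingers that read DNA sequence. The KRAB domain binds the scaffold protein TRIM28, which brings in the histone methyltransferase SETDB1 and heterochromatin proteins, and the bound locus is silenced. Many of these proteins recognise endogenous retroviruses and other transposable elements, and their genes have multiplied in tandem clusters on mouse chromosomes, so that neighbours are often near copies of each other. Zfp809 encodes the protein that recognises the proline transfer RNA primer binding site of murine leukaemia virus and of related endogenous retroviruses. RNA of the retroviral elements themselves was not analysed here.

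The libraries held 36280148 to 44575222 counts. Rpa1, the gene of the largest replication protein A subunit, checked the genotype labels. It stood at 156, 155 and 140 CPM (counts-per-million) in the Control libraries and at 7.76, 4.14 and 6.84 CPM in the OcKO libraries. All 3 OcKO libraries lay below all 3 Control libraries, and Rpa1 fell from 150 ± 8.86 to 6.25 ± 1.89 CPM (mean ± SD, n = 3 each), a log2 fold change of -4.59 (SE 0.31, adjusted p = 0.0064, edgeR quasi-likelihood test with Benjamini-Hochberg adjustment). Its call was lost in 3 of the fits that left out a library, with an adjusted p of 0.0526 when Control replicate 2 was removed, 0.0588 for Control replicate 3 and 0.0959 for OcKO replicate 3. Every one of the 15 oocyte markers was detected in both groups, with a summed level of 41396 to 64139 CPM in Control and 34635 to 44998 CPM in OcKO. Markers of granulosa and cumulus cells summed to 60.9 to 105 CPM in Control and 90.6 to 106 CPM in OcKO, and Tnfaip6, Ptx3, Foxl2 and Has2 were at 0 counts in all Control libraries and Ptx3 in all OcKO libraries. Theca and stroma markers summed to 2.40 to 9.51 and 3.32 to 7.0 CPM, with Lum and Cyp17a1 at 0 in Control. Blood, immune and endothelial markers summed to 94.6 to 129 and 99.2 to 125 CPM, most of it the endothelial gene Pecam1 (73.6 to 125 CPM over the 6 libraries), with Cdh5 at 0 in Control. None of the markers was called between the groups. Some did not overlap: the theca gene Cyp17a1 was at 0.457 to 0.763 CPM and the stroma gene Col3a1 at 0.295 to 1.00 CPM in OcKO, against 0 and 0.0276 to 0.115 CPM in Control. The oocyte factors Bmp15 (2461 to 4132 CPM in OcKO, 5060 to 7794 in Control) and Gdf9 (6677 to 7432 CPM in OcKO, 8177 to 14006 in Control) were lower. These 4 were singled out after their values were seen. Lum (higher) and Ooep, Mos and Hbb-bs (lower) did not overlap either, against 10.7% higher and 8.67% lower over all tested genes. The oocyte genes Nobox, Figla and Npm2 had log2 fold changes of 0.28, 0.15 and 0.11, and the other tested oocyte markers were negative. Dcn and Col1a1 had -2.72 and -0.72, with overlap, and Star and Acta2 were positive. The part of the other cell types in the results below was not tested.

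The members differed widely in level, but none came near the most abundant oocyte genes. The highest level of a member in a library was 279 CPM (Zfp951, OcKO replicate 2). The oocyte factor Gdf9 stood at 6677 to 14006 CPM over the 6 libraries. Of the 91, 37 had a mean of at least 10 CPM over the 6 libraries and 26 had a mean under 1 CPM. Together the members summed to 1760, 1708 and 2049 CPM in the Control libraries and to 1965, 2809 and 1541 CPM in the OcKO libraries. OcKO replicate 2 was the highest of the 6 libraries and OcKO replicate 3 the lowest, so the summed levels of the groups overlapped. Zfp968, Zfp967, Zfp853 and Zfp811 had 0 counts in every library, which allows a level of up to 0.0660 to 0.0864 CPM per library (3 counts, for counting error only).

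**Figure D1:**
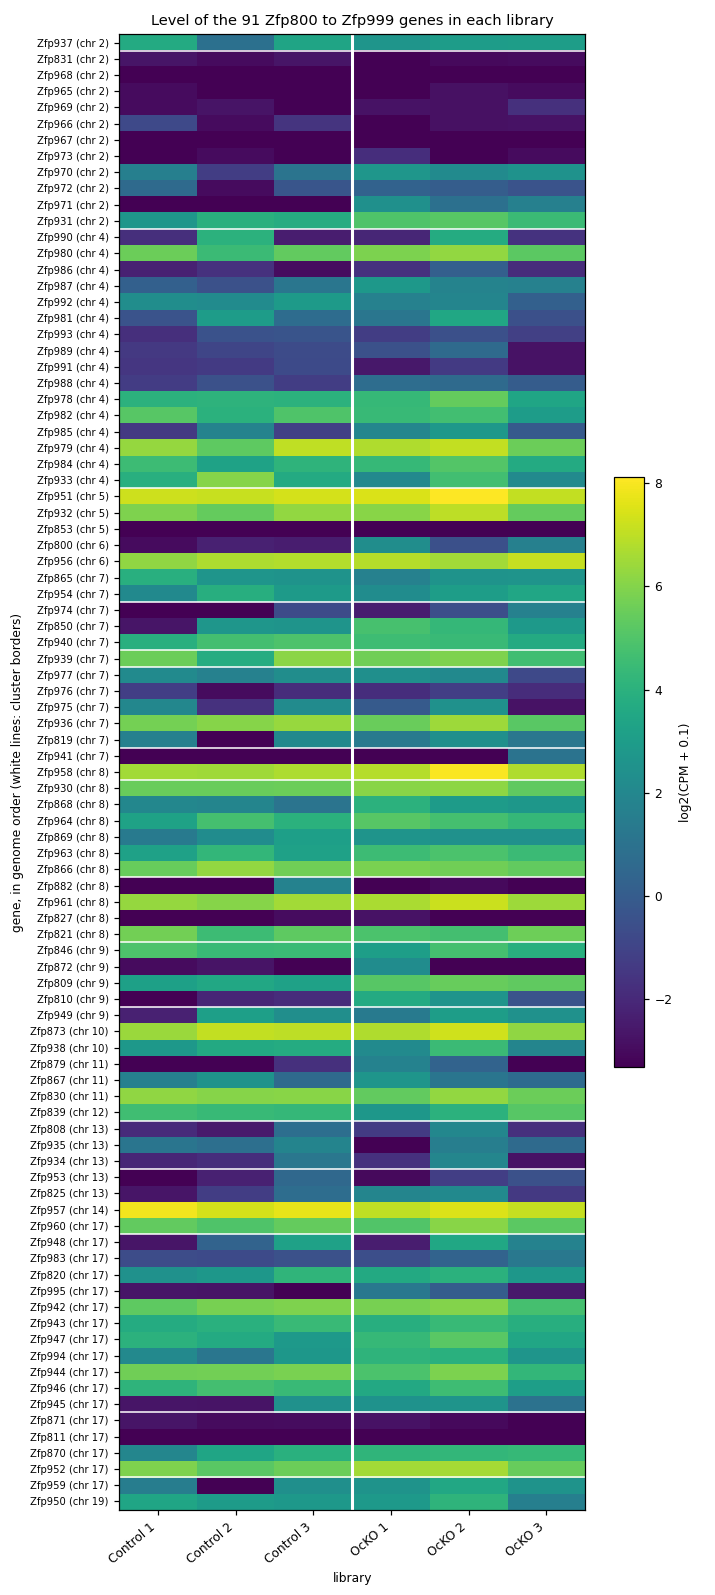
Level of each member in each library, on a colour scale of log2(CPM + 0.1), with members in genomic order, white horizontal lines at cluster borders and the 3 Control libraries to the left of the 3 OcKO libraries. A reader should see that high and low members alternate inside the same cluster, and that many rows keep a like shade across both groups.

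Per kilobase of exon, which allows levels of different genes to be set beside each other, Zfp957 on chromosome 14 led with a mean of 55.6 CPM per kb. Its level was 242, 167 and 210 CPM in Control and 129, 185 and 140 CPM in OcKO, and the groups overlapped because OcKO replicate 2 lay above Control replicate 2. Zfp958 on chromosome 8 came next with 55.0 CPM per kb, at 93.6, 89.2 and 107 CPM in Control and 116, 267 and 107 CPM in OcKO. The high OcKO mean of Zfp958 rested on replicate 2, and the log2 fold change of 0.76 became 0.25 without that library. Zfp830, which encodes a protein tied to pre-mRNA splicing and needed by the early embryo, stood at 39.2 CPM per kb. It was at 75.7, 65.7 and 67.6 CPM in Control and 41.8, 77.0 and 46.5 CPM in OcKO, so the groups overlapped. Zfp951, Zfp873 and Zfp956 followed at 37.1, 36.1 and 35.8 CPM per kb. For these 6 members of highest level the log2 fold change ran from -0.45 (Zfp957) to 0.76 (Zfp958) with adjusted p from 0.508 to 0.986 in edgeR's quasi-likelihood test with Benjamini-Hochberg adjustment, so none of them passed the threshold. Neighbours in this order were close: Zfp957 and Zfp958 differed by less than the spread of either, as did Zfp951, Zfp873 and Zfp956.

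The comparison of OcKO with Control asks which of these genes change when the oocyte lacks RPA1. Of the 91 members, 71 passed the filter on low counts and 20 did not. The edgeR test called 0 members higher and 0 lower, against 0.137% and 0.00623% of the 16060 genes tested. At an unadjusted p under 0.05 it had 8 members higher and 0 lower, against 5.93% higher and 5.21% lower over all genes. Among the 71, the libraries did not overlap for 14 members with OcKO above Control and for 1 member, Zfp992, with OcKO below, against 10.7% and 8.67% over all genes. A positive log2 fold change was seen in 44 of the 71 (62.0%, against 50.8% over all genes), and the median was 0.31 against 0.01 over all genes and 0.09 over the 230 tested of the other 283 genes named Zfp and a number. DESeq2 called 6 members higher, namely Zfp971, Zfp931, Zfp800, Zfp868, Zfp809 and Zfp810, and 0 lower, against 4.33% and 2.21% of genes, while limma voom called 0 in either direction, against 0% higher and 0.00623% lower. Leaving out OcKO replicate 2 moved the median of the members to -0.06 and the members at p under 0.05 to 5 higher and 6 lower, whereas leaving out any other single library left a median of 0.20 to 0.57. Zfp971, Zfp810 and Zfp800 entered the test through their OcKO libraries, so a difference was built into their selection. Zfp850 and Zfp959, also among the 14, had a Control library at or near 0 and passed only with OcKO libraries counted. The same holds for some members with overlap, such as Zfp945. The counts over tested members therefore support nothing by themselves. In RNA of pooled oocytes, fewer cells with a transcript and less transcript per cell cannot be told apart.

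Zfp809 had the smallest p of all members. Its gene (ENSMUSG00000057982) lies on chromosome 9 at 22225714 to 22243354 on the plus strand of GRCm38. The Control libraries held 9.04, 11.7 and 9.36 CPM and the OcKO libraries 34.9, 43.7 and 39.9 CPM. The lowest OcKO library was far above the highest Control library, and both groups were tight. The means were 10.03 ± 1.44 and 39.5 ± 4.39 CPM (SD, n = 3 each), 3.94-fold higher in OcKO, with a log2 fold change of 1.98 (SE 0.29). With Benjamini-Hochberg adjustment over all genes this missed the threshold in edgeR's quasi-likelihood test (adjusted p = 0.0831) and in limma voom (adjusted p = 0.182), and passed it in DESeq2 (adjusted p = 3.53e-15). Over its alternatives the adjusted p ranged from 3.53e-15 to 0.481. Restricting the edgeR fit to genes with a mean of at least 5 CPM gave an adjusted p of 0.0321. Over 13 alternatives the log2 fold change of Zfp809 stayed between 1.90 and 2.15. None of its sampled 50-base words occurred in the annotated transcripts of another gene; copies with mismatches were not searched.

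Zfp810 (chromosome 9, 22276748 to 22307648, minus strand) is the next member along the chromosome. It stood at 0, 0.132 and 0.173 CPM in Control and at 12.5, 5.90 and 0.665 CPM in OcKO. All OcKO libraries lay above all Control libraries, but they differed from each other by more than 10-fold. The log2 fold change was 5.93 (SE 1.65, adjusted p = 0.213 in edgeR and 0.00043 in DESeq2, both with Benjamini-Hochberg adjustment). Upstream of Zfp809, Zfp872 had 206 counts in OcKO replicate 1 and 0 in the other OcKO libraries, and 1, 2 and 0 counts in Control. A window from 200 kb before Zfp872 to 200 kb after Zfp810 was chosen after the values of these genes were seen. It held 35 genes, and of the 15 other tested genes 0 were higher and 1, Cnn1, was lower at an unadjusted p under 0.05. Their median log2 fold change was 0.02, and Zfp599, between Zfp809 and Zfp810, had 0 counts in every library.

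Promoter windows from RefSeq (GRCm38.p6) matched 78 of the 91 members by symbol, and the stretch from 250 to 51 bases before the start of Zfp809 and of Zfp810 is shown because these neighbours had the OcKO libraries above Control together. Capitals mark CG pairs, the sites of DNA methylation.
Zfp809 (chr9:22225462-22225661, plus strand): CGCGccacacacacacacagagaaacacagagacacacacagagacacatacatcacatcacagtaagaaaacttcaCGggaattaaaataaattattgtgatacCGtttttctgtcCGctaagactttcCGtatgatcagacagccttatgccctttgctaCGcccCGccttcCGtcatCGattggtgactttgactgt
Zfp810 (chr9:22307689-22307888, minus strand): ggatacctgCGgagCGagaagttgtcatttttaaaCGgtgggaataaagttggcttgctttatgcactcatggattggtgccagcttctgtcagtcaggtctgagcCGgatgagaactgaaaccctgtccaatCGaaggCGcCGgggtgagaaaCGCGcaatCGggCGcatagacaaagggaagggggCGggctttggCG

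The printed stretch of Zfp809 holds 10 CG pairs and that of Zfp810 holds 13. Over whole windows of 300 bases, from 250 before to 50 after the start, the members had a median of 8.5 CG pairs, against 7 over all 32851 windows. A p53 half-site was searched on both strands because p53 responds to DNA damage. It was found in 3 members (3.85%, against 8.36% of all windows), which were Zfp940, Zfp963 and Zfp866. The RefSeq start used for Zfp866 lies 16267 bases from the start of the counted gene, and for Zfp993 98112 bases. Each member gave only the window nearest its deposited start, while all windows include more than 1 for some genes. The TATAAA box was found in 1 member (1.28%, against 13.6%), and the E-box CANNTG in 59 members (75.6%, against 72.3%). The letters TAATTG, bound by the oocyte factor NOBOX, were found in 3 members (3.85%, against 8.0%). Matches of different motifs were free to overlap, and they describe letters in a window only.

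Zfp971 (ENSMUSG00000074519) lies on chromosome 2 at 178023284 to 178034022 on the plus strand. It had 0 counts in all 3 Control libraries and 232, 81 and 124 counts in the OcKO libraries, which is 5.30, 1.78 and 3.05 CPM. The OcKO mean was at least 122.6-fold higher, set against a floor of 3 counts over the whole Control group. The adjusted p was 0.120 in edgeR, 0.185 in limma voom and 3.45e-07 in DESeq2. Its neighbour Zfp931 (chromosome 2, 178067695 to 178078476, minus strand) had counts in every library.

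Zfp931 stood at 6.34, 15.3 and 13.3 CPM in Control and at 30.8, 35.7 and 22.4 CPM in OcKO. All OcKO libraries lay above Control, with a log2 fold change of 1.35 (SE 0.43, adjusted p = 0.280 in edgeR and 0.0286 in DESeq2). Zfp970, of the same cluster, stood at 2.98, 0.316 and 2.02 CPM in Control and at 6.33, 4.4 and 5.61 CPM in OcKO, again without overlap (log2 fold change 1.62, SE 0.93). The cluster on chromosome 2 spans 174643534 to 178078476, from Zfp831 to Zfp931, and holds 11 members. Of these 4 were tested, all 4 had positive log2 fold changes and the median was 1.48. The sign of Zfp971 was fixed by its entry through the OcKO libraries. Zfp972, with overlap, had 52, 1 and 25 counts in Control and 49, 42 and 27 in OcKO, and it also needed OcKO libraries to pass the filter. The other 7 had few or no counts and were not tested. Zfp968, Zfp967, Zfp965, Zfp969 and Zfp973 had at most 8 counts in a library. Zfp966 had 17, 1 and 8 counts in Control and 0, 2 and 2 in OcKO. Zfp831 had 2, 1 and 2 counts in Control and 0, 1 and 1 in OcKO.

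Members of the chromosome 2 cluster with few or no counts resemble Zfp971 in the sequence before their starts. A stretch of 150 bases of the Zfp971 window was matched in the windows of 8 other members at 78.7% to 96.7% identity, with Zfp972 lowest, Zfp931 at 92.7% and Zfp968, Zfp966, Zfp967 and Zfp970 highest. The window of Zfp965, which had at most 0.0440 CPM in any library, is shown beside that of Zfp971. Capitals in Zfp965 mark the 6 bases that differ from Zfp971.
Zfp971 (chr2:178023034-178023233, plus strand): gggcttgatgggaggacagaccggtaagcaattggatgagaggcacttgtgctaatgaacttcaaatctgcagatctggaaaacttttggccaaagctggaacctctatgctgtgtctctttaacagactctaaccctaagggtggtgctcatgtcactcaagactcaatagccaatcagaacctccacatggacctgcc
Zfp965 (chr2:175469775-175469974, plus strand): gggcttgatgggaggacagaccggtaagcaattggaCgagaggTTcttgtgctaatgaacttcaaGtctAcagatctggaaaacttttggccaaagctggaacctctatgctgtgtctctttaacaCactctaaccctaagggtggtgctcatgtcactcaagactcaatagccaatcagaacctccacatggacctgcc

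The transcripts of the members with few or no counts also share sequence with other genes. All sampled 50-base words of Zfp967 and Zfp969 (100%), 95.9% of those of Zfp968 and 96.0% of those of Zfp965 occurred in the transcripts of another gene, against 51.9% for Zfp971 and 22.3% for Zfp931. How the authors' counting treated reads that match several genes was not given in the sources used here, so counts at or near 0 in these genes may leave out reads, and the counts of their neighbours are uncertain for the same reason.

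Outside these clusters and in others, a further 4 members with OcKO above Control in every library were named by the smallest p. Zfp800 on chromosome 6 (28239927 to 28398005, minus strand) stood at 0.0276, 0.105 and 0.0864 CPM in Control and at 4.73, 0.594 and 3.03 CPM in OcKO. It was near the floor in every Control library, and OcKO replicate 2 was the lowest of its group. The log2 fold change was 5.19 (SE 1.25, adjusted p = 0.153 in edgeR and 0.000431 in DESeq2). Zfp800 shares exonic sequence with 6530409C15Rik on the other strand, and since the library kit does not mark strand their reads cannot be told apart there; 6530409C15Rik was at 0 in all OcKO libraries.

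Zfp868 on chromosome 8 stood at 3.83, 3.59 and 2.02 CPM in Control and at 16.1, 7.77 and 6.62 CPM in OcKO. OcKO replicate 1 was the highest library, and the log2 fold change was 1.69 (SE 0.64, adjusted p = 0.377 in edgeR and 0.0371 in DESeq2). Zfp963 of the same cluster stood at 9.21, 18.8 and 9.33 CPM in Control and at 23.1, 29.3 and 22.1 CPM in OcKO. The gap between the groups was small beside the spread of Control, and the log2 fold change was 0.99 (SE 0.41, adjusted p = 0.429 in edgeR). Of the words of Zfp963, 38.1% are shared with Gm20422, which overlaps it on the same strand. Zfp987 on chromosome 4 stood at 1.05, 0.606 and 2.16 CPM in Control and at 6.85, 3.39 and 3.15 CPM in OcKO, with 88.1% of its words found in other genes. Its log2 fold change was 1.81 (SE 0.86, adjusted p = 0.507 in edgeR).

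**Figure D2:**
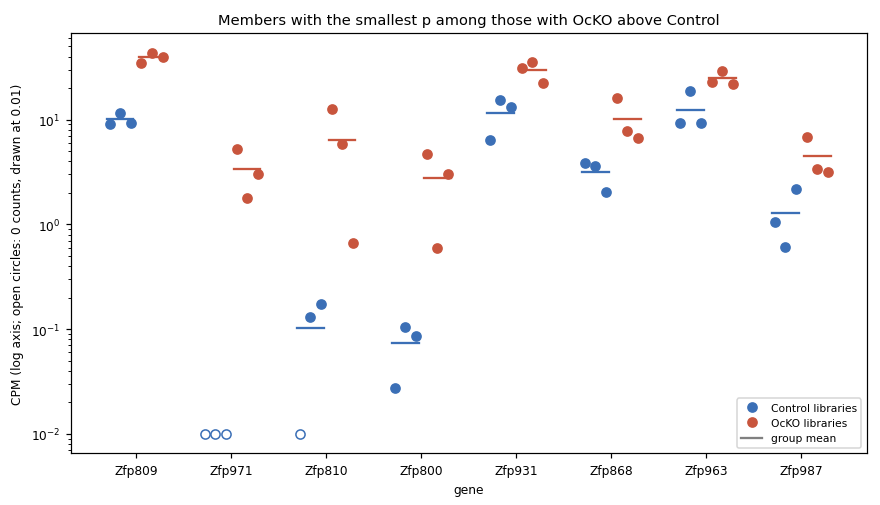
CPM on a log axis of the 8 members with the smallest p among those whose 3 OcKO libraries (red) all lay above the 3 Control libraries (blue); each point is 1 library, lines are group means (none is drawn for a mean of 0) and open circles are libraries with 0 counts. Zfp809 shows the tightest groups (9.04 to 11.7 against 34.9 to 43.7 CPM), while Zfp971, Zfp810 and Zfp800 start at or near 0 in Control and scatter widely in OcKO.

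Zfp992 on chromosome 4 was the 1 tested member with all OcKO libraries below Control. It stood at 4.80, 4.43 and 7.46 CPM in Control and at 3.17, 3.56 and 1.03 CPM in OcKO. OcKO replicate 3 was the lowest, and the log2 fold change was -1.10 (SE 0.76, adjusted p = 0.691 in edgeR). Of its words, 37.0% are shared with Zfp991 of the same cluster.

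The clusters differed in their medians, and each median rests on few genes that share position and sequence and are not replicates. The cluster on chromosome 9, Zfp846 to Zfp810 (20581291 to 22307648), had a median log2 fold change of 1.98 over 3 tested members, of which Zfp846 was negative at -0.58. That median was 0.73 with a minimum mean of 5 CPM, 3.84 with no filter on low counts, and 3.95 with DESeq2 or a cluster gap of 1 Mb. The cluster on chromosome 8, Zfp930 to Zfp866 (69209038 to 69791178), had 6 of 6 members tested, 5 of them positive, with a median of 0.52. A cluster on chromosome 7, Zfp974 to Zfp940, had a median of 2.13 over 3 tested members, which became 0.93 without OcKO replicate 3, 0.94 with a minimum mean of 5 CPM and 3.52 with limma voom.

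In that chromosome 7 cluster, Zfp850 stood at 0.0551, 6.38 and 5.99 CPM in Control and at 27.7, 19.8 and 7.04 CPM in OcKO. Control replicate 1 was close to 0, far below the other Control libraries, and all OcKO libraries lay above all Control libraries. The groups were wide, and the log2 fold change of 2.13 had an SE of 1.26. Zfp850 and Zfp974 passed the filter only with OcKO libraries counted, so part of the difference was built into their selection and into the cluster median. The other cluster on chromosome 7, Zfp977 to Zfp819, had a median of -0.30 over 4 tested members, with Zfp936 at -0.26 (SE 0.36). The sign of the cluster median turned when Control replicate 3 (0.080) or OcKO replicate 3 (0.18) was removed.

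The largest cluster lies on chromosome 4, from Zfp990 to Zfp933 (145510759 to 147848366), with 16 members in 2.34 Mb. Of its 14 tested members 9 were positive and 5 negative, with a median of 0.44, which became -0.16 without OcKO replicate 2. The cluster on chromosome 17 from Zfp948 to Zfp945 had 10 of 11 members tested, 6 positive and 4 negative, with a median of 0.33. That median ranged from -0.11 to 0.95 when 1 library was left out, and the highest value came without Control replicate 3. Its member of smallest p, Zfp994, stood at 4.05, 2.16 and 6.51 CPM in Control and at 17.3, 15.5 and 6.08 CPM in OcKO, so the groups overlapped through OcKO replicate 3.

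The second cluster on chromosome 17, Zfp871 to Zfp952, had a median of 0.84 over 2 tested members. Zfp952 stood at 59.5, 36.8 and 46.2 CPM in Control and at 92.8, 96.5 and 44.6 CPM in OcKO. Again OcKO replicate 3 lay within the Control range while the other OcKO libraries lay above it. The cluster on chromosome 13 held 2 tested members, and the sign of Zfp808 turned from 1.16 to -1.32 without OcKO replicate 2. Over all clusters the 48 tested members had a median of 0.46, and the 23 tested members outside clusters had a median of 0.04, a contrast given as a description.

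**Figure D3:**
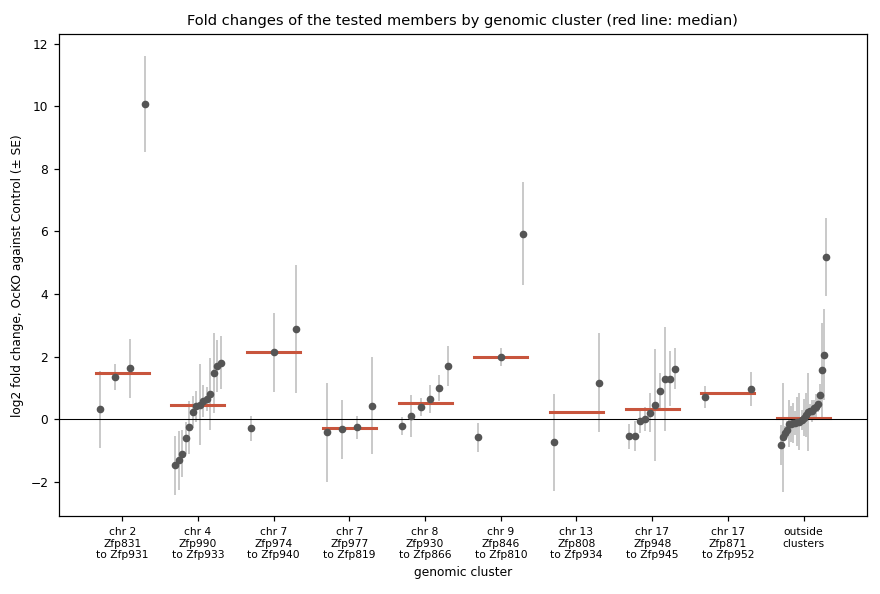
Log2 fold change (OcKO against Control, edgeR) of each tested member, by genomic cluster and for members outside clusters; each point is 1 gene with its SE as a grey line, and red lines are medians. The point of Zfp971, at 10.07, is a fitted value against 0 Control counts and depends on the prior count. Medians run from -0.30 (chromosome 7, Zfp977 to Zfp819) to 2.13 (chromosome 7, Zfp974 to Zfp940), and points within most clusters lie on both sides of 0.

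The members also differed between libraries of the same group. With each gene centred on its mean over the 6 libraries, the median member stood at -0.23, -0.22 and 0.20 (log2 CPM) in the Control libraries and at 0.13, 0.70 and -0.23 in the OcKO libraries. OcKO replicate 2 was high and OcKO replicate 3 was as low as Control replicates 1 and 2. The other genes named Zfp and a number stood at medians of 0.08, -0.02 and 0.07 in the Control libraries and of 0.22, 0.42 and -0.13 in the OcKO libraries, and over all tested genes they lay between 0.00 and 0.14.

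Ranks within a group gave the same order. Of the 75 members with at least 50 counts in a library, OcKO replicate 2 was the highest of its group for 46 (61.3%, against 34.0% over all genes). OcKO replicate 3 was the lowest of its group for 49 (65.3%, against 32.3%). In Control, replicate 3 was the highest for 37 (49.3%, against 31.6%). What sets these libraries apart was not tested.

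**Figure D4:**
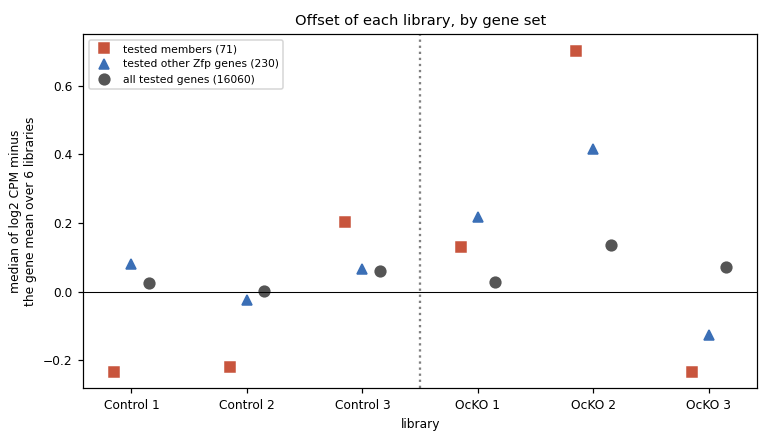
Median over genes of log2 CPM minus the gene's mean over the 6 libraries (vertical), in each library (horizontal), for the tested members, for the tested other genes named Zfp and a number and for all tested genes. The members range from -0.23 to 0.70 across libraries, with OcKO replicate 2 at the top, while all genes stay between 0.00 and 0.14.

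Several members were present in some libraries and close to absent in others of the same group. A spread of at least 10-fold within a group was seen in 24 of the 75 members (32%), close to the 30.1% of all genes, so such a spread is not particular to these genes. It occurred in Control for 15 members, in OcKO for 16 and in both for 7. The examples that follow were chosen after their values were seen.

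Zfp990 stood at 0.193, 16.1 and 0.0864 CPM in Control and at 0.137, 12.9 and 0.222 CPM in OcKO. It was high in 1 mouse of each group. Zfp933, at the other end of the chromosome 4 cluster, stood at 14.9, 66.4 and 12.8 CPM in Control and at 4.13, 25.2 and 4.36 CPM in OcKO, high in the same 2 libraries. Zfp980, between them, was lowest in Control replicate 2, at 46.9, 21.9 and 41.2 CPM in Control and 57.3, 76.9 and 37.2 CPM in OcKO. In these counts the named members of 1 cluster did not share 1 order of the libraries. Zfp980 shares 75.1% of its words with other genes, 61.2% with Zfp600, so its own level is uncertain.

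Other members were high, or at 0, in 1 library alone. Zfp882 stood at 3.28 CPM in Control replicate 3 and at 0.0220 CPM or 0 elsewhere. Zfp941 stood at 1.97 CPM in OcKO replicate 3 and had 0 counts in the other 5 libraries. Zfp959 stood at 2.81, 0 and 5.04 CPM in Control and at 5.80, 11.7 and 5.71 CPM in OcKO. In each of these, libraries of the same genotype differed by more than the 3 counts that a count of 0 allows.

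Members shared more of their transcript sequence with other genes than most genes do. Over the 71 tested members a median of 7.04% of the sampled 50-base words occurred in another gene's transcripts. This was 0.121% for the tested other genes named Zfp and a number and 0% for all tested genes. More than 50% of the words were shared in 12 of the 71 tested members (16.9%), against 5.98% of all tested genes. Members that failed the filter on low counts had a median of 16.3%. Over all 91 members the median was 8.60%, and 19 (20.9%) shared more than 50%. Some members at 0 shared little: Zfp853 and Zfp811, both at 0 in every library, shared 0.272% and 0.664% of their words. Some that shared much were well detected: Zfp980, at 75.1%, stood at 21.9 to 76.9 CPM across the 6 libraries.

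**Figure D5:**
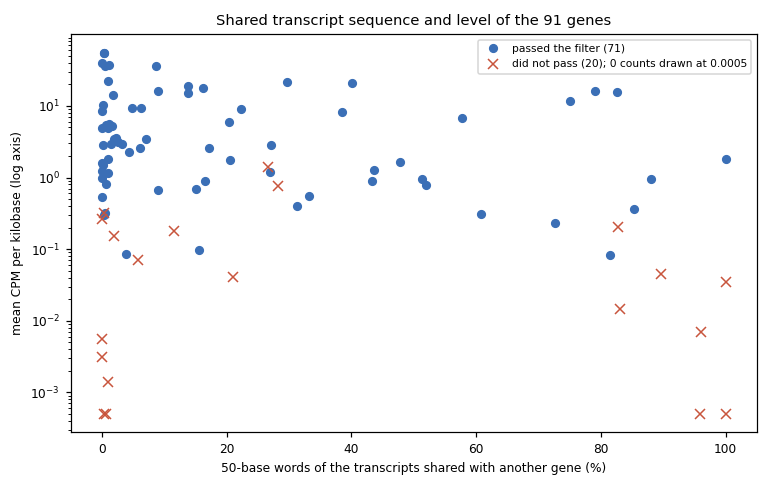
Share of each member's sampled 50-base transcript words that occur in another gene (horizontal, percent) against its mean CPM per kilobase (vertical, log axis), with crosses for the 20 members that did not pass the filter on low counts. Members at 0 counts stand at both ends of the horizontal axis, and tested members are found at every level of sharing.

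The partners through which KRAB zinc finger proteins silence their targets were read in the same fit. The list also holds Zfp57 and Zfp445, which are KRAB zinc finger genes themselves. Of 39 genes on this list, all tested, edgeR called 0 higher and 0 lower (0.137% and 0.00623% over all genes), with 2 higher and 3 lower at an unadjusted p under 0.05 (5.93% and 5.21% over all genes). DESeq2 called 2 higher, Daxx and Mta2, and 1 lower, Atrx (4.33% and 2.21% over all genes), and limma voom called 0. The log2 fold change was positive for 14 (35.9%, against 50.8% over all genes) and negative for 25, and its median was -0.06, against 0.01 over all genes. Scaling by library size alone moved the median of the list to 0.10 and that of all genes by 0.17, to 0.18.

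Trim28, the scaffold, stood at 43.0, 73.3 and 60.2 CPM in Control and at 49.9, 37.0 and 78.1 CPM in OcKO, with overlapping groups and a log2 fold change of -0.10 (SE 0.34). Setdb1, the methyltransferase, stood at 569, 465 and 502 CPM in Control and at 506, 520 and 465 CPM in OcKO, also overlapping, with a log2 fold change of -0.04 (SE 0.16). Scaling by library size alone, which raises all genes, gave 0.10 for Trim28 and 0.12 for Setdb1, both below the median of all genes under that scaling.

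Atrx and Daxx encode a pair of proteins that deposit a histone variant at silent repeats, and they stood in opposite directions. Atrx was at 388, 360 and 377 CPM in Control and at 193, 262 and 147 CPM in OcKO, all OcKO libraries below Control, with a log2 fold change of -0.90 (SE 0.23, adjusted p = 0.178 in edgeR and 0.00918 in DESeq2). Daxx was at 71.4, 56.0 and 67.4 CPM in Control and at 119, 86.3 and 114 CPM in OcKO, all OcKO libraries above Control, with a log2 fold change of 0.71 (SE 0.21, adjusted p = 0.255 in edgeR and 0.0275 in DESeq2). Mta2, a subunit of the NuRD deacetylase complex, was at 0.386, 5.14 and 2.07 CPM in Control and at 35.6, 7.08 and 19.1 CPM in OcKO. It varied more than 10-fold within Control and its log2 fold change was 3.02 (SE 1.00, adjusted p = 0.298 in edgeR).

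Gatad2b, another NuRD subunit, had all OcKO libraries below Control (log2 fold change -0.68, SE 0.25, adjusted p = 0.346 in edgeR). Hdac2, a histone deacetylase, stood at 66.2, 37.5 and 11.4 CPM in Control and at 16.3, 12.3 and 9.25 CPM in OcKO. The Control libraries of Hdac2 ranged over 5.79-fold and the groups overlapped (log2 fold change -1.61, SE 0.61, adjusted p = 0.375 in edgeR).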

How the data were processed

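RNA was measured in 6 libraries (3 Control, 3 OcKO). The authors deposited raw counts of reads per gene, as 1 table and 1 file per sample, which held 49315 genes and differed in 0 values. Trimmomatic 0.36 for trimming, STAR 2.5.2b for alignment to GRCm38 and featureCounts (Subread 1.5.2) for counting were used, per the submitters' processing notes. The annotation release, the strand setting and how multi-mapping reads were handled were not given in the sources used here. Exon lengths and coordinates are those in the deposited count files.

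Libraries were compared with edgeR 4.0.16 (glmQLFit and glmQLFTest, R 4.3.3) with TMM scaling and filterByExpr, which left 16060 genes, and p-values were adjusted over all of them (Benjamini-Hochberg, threshold 0.05). CPM values are TMM-scaled, and SE is the size of the log2 fold change divided by the root of the F statistic. A positive log2 fold change means higher in OcKO. DESeq2 1.42.0, limma voom (limma 3.58.1), other scalings and filters, cluster gaps of 1 and 5 Mb, and leaving out each library were alternatives. On 3 simulated sets of this comparison (15757 to 15793 genes) edgeR recovered 97.9% to 99.0% of 64-fold changes and 0% to 3% of 4-fold changes.

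Named genes are Zfp809, called members, up to 8 members of smallest p on each side among those with no overlap of the libraries, the 6 of highest CPM per kb, the member of smallest p in each cluster, Trim28, Setdb1, and up to 3 partners of smallest p on each side. A gene picked by this rule is not reported here. Some further genes are named as exceptions, chosen after their values were seen. The members, by a rule on symbols, and the lists were chosen with earlier results of these data known. Shared words are 50-base words sampled from GENCODE M21 transcripts, where all 91 members had transcripts. Promoter alignments used edlib. Protein features were not analysed here. Pairs of libraries differed by a chi-square of at least 121 per degree of freedom, so no library was a duplicate. Labels give 1 mouse per library, so p-values measure the spread between mice and preparations together.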

Additional observations from a re-analysis of the deposited data

How the results depend on the processing

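The number of members called higher was 0 in edgeR, 1 with a minimum mean of 5 CPM and 6 with DESeq2, and no alternative called a member lower. DESeq2 also called 2 silencing partners higher and 1 lower. Medians of log2 fold change moved beyond their spread as follows. The chromosome 4 cluster moved to -0.16 without OcKO replicate 2, and the chromosome 17 cluster of Zfp948 to Zfp945 to 0.95 without Control replicate 3. Over the other fits that left out 1 library both stayed within their spread, at up to 0.69 for chromosome 4 and down to -0.11 for chromosome 17. The chromosome 7 cluster of Zfp974 to Zfp940 was 3.52 with limma voom. The chromosome 9 cluster was 3.84 with no filter, 0.73 with the 5 CPM minimum, 3.95 with DESeq2 and 3.95 with a cluster gap of 1 Mb, settings that change which of its few members enter. The silencing partners were 0.10 with library size alone. The fold change of Rpa1 ranged from -4.78 to -4.33 without 1 library. Library size alone raises the median of all genes by 0.17, so values just below 0 turned positive: Zfp873 (0.12), Trim28 (0.10) and Setdb1 (0.12). Signs reversed on leaving out 1 library, over which Zfp873 ranged from -0.33 to 0.19, Zfp808 from -1.32 to 3.52, Trim28 from -0.44 to 0.16 and Setdb1 from -0.081 to 0.035. The cause of these latter reversals was not tested. The median of all tested members, 0.31, was -0.06 without OcKO replicate 2, a move within its spread. Of the other values, 209 counts, medians and Rpa1 values moved by less than their spread or kept their side of the threshold, 337 single-gene values kept their direction and side, and 10 passed the threshold in the same direction. With 3 libraries a group, simulated 4-fold changes were rarely called by edgeR, in a simulation that gave all genes the same spread. For genes with such a spread, this limits what edgeR can detect here. Whether that rate holds for a member with tight groups, such as Zfp809, was not tested.

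The labels do not say whether the replicate numbers pair the mice. Same-numbered libraries correlated at -0.037, -0.045 and -0.045 in their deviations from the group means, and different-numbered ones at 0.014 to 0.031. Values this near 0 cannot show whether mice were paired. With the replicate block, the call of Rpa1 was lost (-4.63, adjusted p = 0.159), 0 members were called and the median of the members was 0.29. Over all genes the block left 0 calls higher and 0 lower, against 22 and 1 without it.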
